A study of Mus musculus with 9 samples.

Results

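Hox transcripts were present in 8 of 9 libraries of these mouse glioblastomas, where the HoxA cluster supplied 76.6 to 99.9% of them, and they varied widely among libraries of the same model. The ninth library had almost none. The 39 protein-coding Hox genes were taken by name, as every gene whose symbol is Hoxa, Hoxb, Hoxc or Hoxd followed by a number only. They are 39 of the 46517 gene identifiers counted, with 11 genes in HoxA, 10 in HoxB, 9 in HoxC and 9 in HoxD.

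The data are bulk RNA sequencing of glioblastoma tissue, taken directly from mice of 3 models, with 3 libraries per model and 9 in all. The series set out to compare tumours thought to begin in different cells. In the Synapsin-cre model the Cre recombinase carries the name of a promoter active in neurons. For Nestin-creERT2 the promoter is that of Nestin, which neural stem cells and progenitors use. For NG2-creERTM it is that of Cspg4, used by oligodendrocyte precursors and by pericytes. Cre of the ERT2 or ERTM form needs tamoxifen to become active. All 3 groups are labelled with a mixed strain background. The labels do not give the tumour-driving alleles, the tamoxifen dose or time, the place of the tumour in the nervous system, or the animals' age and sex. They are silent on whether the 3 samples of a model stem from separate animals, and p-values therefore measure only the spread among the samples given, part of which may be technical.

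Hox genes encode transcription factors with a homeodomain. In the embryo their order along each cluster matches the order of their expression along the body: genes with low paralog numbers start in the hindbrain, those with middle numbers in the spinal cord, and those with the highest numbers towards the tail and in the limb ends. The healthy forebrain and midbrain keep the clusters silent under Polycomb repression, and HOXA genes are known to be expressed again in some human glioblastomas. Hox proteins bind DNA with Pbx and Meis cofactors, and retinoic acid and the Cdx factors switch the clusters on in order.

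The clusters lie at chr6:52155590-52260880 (HoxA), chr11:96194316-96368256 (HoxB), chr15:102921103-103036852 (HoxC) and chr2:74668310-74765142 (HoxD) in GRCm38. The RefSeq promoter table of GRCm38.p6 held 24 start sites of 22 Hox genes, 9 of them in HoxA, 3 in HoxB, 1 in HoxC and 9 in HoxD. The 250 bases before the start are shown for 5 genes, because the results turn on them: Hoxa5 and Hoxa7, which led different libraries, Hoxa9, which opens the posterior end of HoxA, Hoxd8, which was high in 2 libraries, and Hoxb4, which stayed near 0 in all. Capitals mark CpG dinucleotides, and each sequence reads 5′ to 3′ on the strand of its gene.
Hoxa5: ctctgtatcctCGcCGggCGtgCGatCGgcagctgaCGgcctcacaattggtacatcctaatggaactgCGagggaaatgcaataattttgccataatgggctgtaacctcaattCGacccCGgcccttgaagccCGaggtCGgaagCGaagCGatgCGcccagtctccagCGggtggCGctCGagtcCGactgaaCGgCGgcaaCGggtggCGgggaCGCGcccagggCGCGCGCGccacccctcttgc
Hoxa7: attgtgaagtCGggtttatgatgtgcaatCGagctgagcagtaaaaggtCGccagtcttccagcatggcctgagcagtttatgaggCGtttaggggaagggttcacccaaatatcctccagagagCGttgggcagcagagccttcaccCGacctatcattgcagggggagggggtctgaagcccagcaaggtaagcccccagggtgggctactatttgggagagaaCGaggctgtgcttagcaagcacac
Hoxa9: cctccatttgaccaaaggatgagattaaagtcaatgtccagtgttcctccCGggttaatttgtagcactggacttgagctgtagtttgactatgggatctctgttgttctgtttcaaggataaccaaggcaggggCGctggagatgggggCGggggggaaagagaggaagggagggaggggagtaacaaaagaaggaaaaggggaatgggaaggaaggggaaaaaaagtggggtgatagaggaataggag
Hoxd8: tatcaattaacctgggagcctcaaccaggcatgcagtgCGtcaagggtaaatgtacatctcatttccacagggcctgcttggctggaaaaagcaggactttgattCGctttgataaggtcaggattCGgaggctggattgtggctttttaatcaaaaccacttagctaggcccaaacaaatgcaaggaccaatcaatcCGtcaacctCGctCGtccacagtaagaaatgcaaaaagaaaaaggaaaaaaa
Hoxb4: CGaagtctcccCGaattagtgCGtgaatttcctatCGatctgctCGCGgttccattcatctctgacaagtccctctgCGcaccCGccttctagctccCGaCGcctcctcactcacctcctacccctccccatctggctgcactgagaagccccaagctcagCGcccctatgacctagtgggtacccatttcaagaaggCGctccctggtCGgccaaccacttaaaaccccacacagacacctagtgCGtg
The windows lie at chr6:52204588-52204837 (Hoxa5, minus strand), chr6:52218574-52218823 (Hoxa7, minus strand), chr6:52227371-52227620 (Hoxa9, minus strand), chr2:74704365-74704614 (Hoxd8, plus strand) and chr11:96318017-96318266 (Hoxb4, plus strand). They differed widely in CpG content. The Hoxa5 window held 28 CpG and the Hoxb4 window 14, against 7 for Hoxa7, 6 for Hoxd8 and 3 for Hoxa9. The median was 12.5 CpG over the 24 Hox windows and 6 over all 32817 windows of the table. The letters TGATTNAT, a site bound by Pbx and Hox together, were found on either strand in 2 of the 24 windows (8.33%, those of Hoxa2 and Hoxd11) and in 2.83% of all windows. The CCAAT box was in 14 (58.3%, against 33.8% of all), the retinoid receptor half-site AGGTCA in 6 (25% against 14.0%), TATAAA in 4 (16.7% against 12.4%) and the Cdx site TTTATGG in 1 (4.17% against 2.43%). A match describes these letters only.

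The libraries held 23557398 to 41099967 counts in genes, with a median of 34742585. Levels are given as CPM, which are counts brought to the same total in every library with TMM factors. The floor of 3 counts corresponds to 0.0714 to 0.133 CPM. Glial markers were present in every library, with Olig2 from 38.96 to 809 CPM and Gfap from 94.0 to 4020 CPM. Synapsin-cre replicate 1 stood apart: its 6 neuron markers summed to 3718 CPM against 30.5 to 569 in the other 8, and its 5 dividing cell markers to 66.6 CPM against 863 to 1852. It also had the fewest counts. Nestin-creERT2 replicate 1 held choroid plexus markers at a summed 6020 CPM, against at most 16.4 elsewhere. The models also differed in the sex-linked genes: Xist was 1.02 to 1.28 CPM in Synapsin-cre and 777 to 1808 CPM in Nestin-creERT2, and from 0.988 to 1319 CPM in NG2-creERTM. Ddx3y was 59.2 to 66.8, 0 to 0.0714 and 0.0523 to 71.6 CPM in the same order. Between Synapsin-cre and Nestin-creERT2, model and sex as read from these genes cannot be told apart.

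In 8 of the 9 libraries the 39 Hox genes together reached 46.4 to 162 CPM. Their sum was 100.1 and 68.3 CPM in Synapsin-cre replicates 2 and 3. It was 99.6, 162 and 46.4 CPM in Nestin-creERT2 replicates 1, 2 and 3. In NG2-creERTM it was 124, 111 and 67.0 CPM. These ranges overlap across the models. Synapsin-cre replicate 1 had 28 Hox counts in all, or 1.24 CPM (exact Poisson 95% interval 0.823 to 1.79, which covers counting error only). The means were 56.5 ± 50.5 CPM (SD, n = 3) in Synapsin-cre, 102.8 ± 58.1 in Nestin-creERT2 and 100.8 ± 30.0 in NG2-creERTM. In bulk tissue, fewer cells that express a gene and less RNA of it per cell cannot be told apart.

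**Figure D1:**
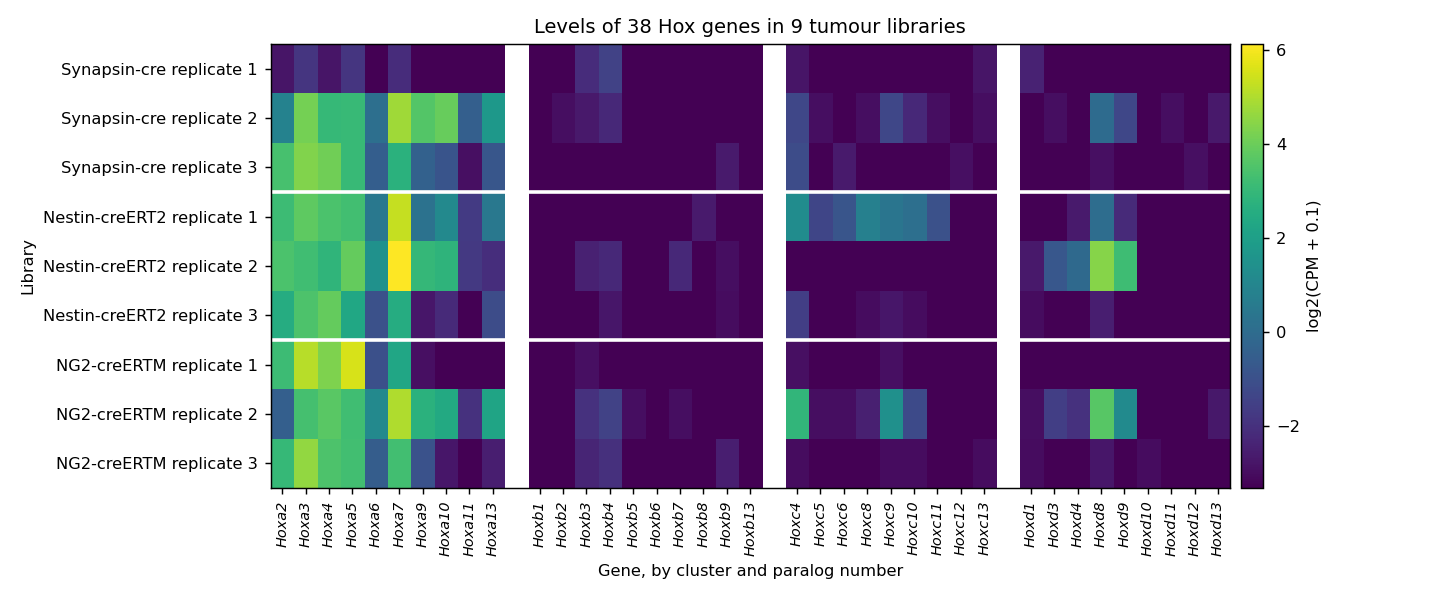
Colour shows log2(CPM + 0.1) of each of 38 Hox genes (columns, by cluster and paralog number) in each of the 9 libraries (rows, by model). The HoxA block is bright in 8 libraries, HoxB is dark in all 9, and HoxC and HoxD are brightest in single libraries of Nestin-creERT2 and NG2-creERTM.

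HoxA supplied 76.6 to 99.9% of the Hox CPM in those 8 libraries, with a median of 98.3%. HoxB supplied 0.0241 to 0.481%, HoxC 0 to 9.34% and HoxD 0 to 19.4%. In all, 15 Hox genes reached 1 CPM in at least 1 library, and 24 stayed below it in every library. Among the latter, Hoxd3 and Hoxd4 share 62.35 and 52.31% of their exonic bases with genes on the same strand. Reads there are ambiguous and not counted, so the values of both genes can be too low. Their highest values were 0.498 and 0.831 CPM, in Nestin-creERT2 replicate 2. Hoxa3, Hoxa4, Hoxa5 and Hoxa7 were among those that reached 1 CPM in 8 libraries, and no Hox gene did in all 9. The paralog groups show the same preference for HoxA: its gene held 99.9, 99.1, 99.7 and 99.9% of the counts of paralog groups 2, 3, 5 and 7 over the 9 libraries. The share was 88.9% in group 4 and 63.9% in group 9. Group 8 has no HoxA member.

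**Figure D2:**
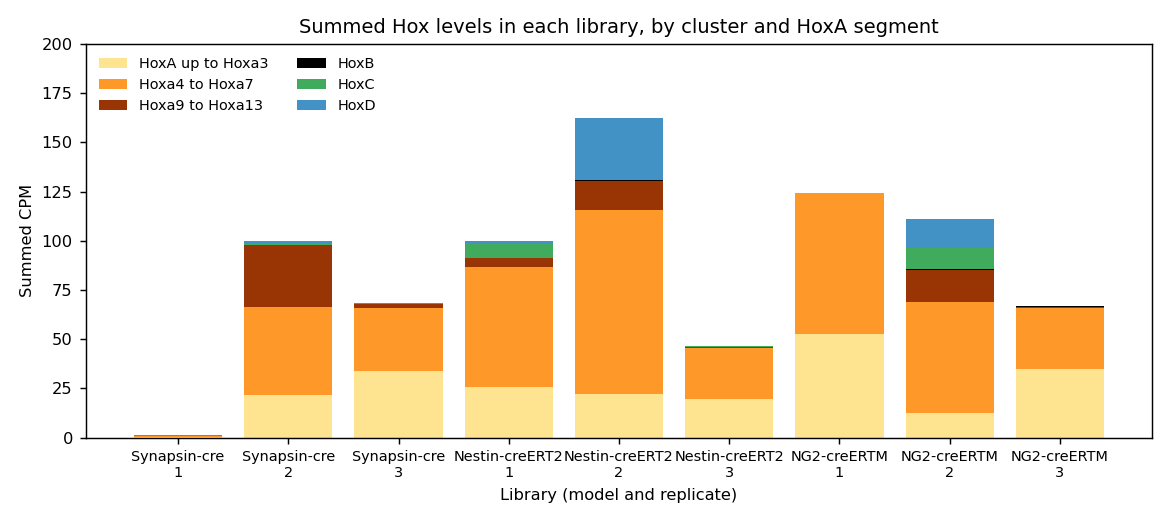
Bars give summed CPM per library, stacked by HoxA segment (paralogs up to 3, 4 to 7 and 9 to 13) and by the other clusters. Paralogs 4 to 7 of HoxA make up 45.6 to 71.7% of HoxA in 8 libraries, and HoxD is visible in Nestin-creERT2 replicate 2 and NG2-creERTM replicate 2.

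The anterior end of HoxA, whose genes pattern the hindbrain, was on in the same 8 libraries. Hoxa3, which shapes the pharyngeal arches and the caudal hindbrain, was 0.177, 17.9 and 20.1 CPM in Synapsin-cre replicates 1, 2 and 3, 13.9, 9.36 and 11.1 CPM in Nestin-creERT2 and 34.7, 9.93 and 24.2 CPM in NG2-creERTM. It was high in 8 libraries, and the 3 models overlapped. Hoxa2, which sets the identity of the second pharyngeal arch, was less even, at 0.0442, 1.71 and 10.3 CPM in Synapsin-cre, 8.87, 10.9 and 5.64 CPM in Nestin-creERT2 and 8.83, 0.627 and 7.93 CPM in NG2-creERTM. Besides Synapsin-cre replicate 1, it was low in Synapsin-cre replicate 2 and NG2-creERTM replicate 2. Parts of the exons of Hoxa2 (15.04%) and Hoxa3 (8.0%) also belong to the read-through gene model Gm28308, so reads there are ambiguous and not counted.

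Hoxa4 and Hoxa5 pattern the neck and upper thorax, and Hoxa5 also acts in lung development. Hoxa4 was 0.0442, 8.02 and 16.9 CPM in Synapsin-cre, 10.9, 7.09 and 14.7 CPM in Nestin-creERT2 and 19.5, 13.1 and 11.2 CPM in NG2-creERTM. Outside Synapsin-cre replicate 1 it ran from 7.09 to 19.5 CPM, a range in which the 3 models overlapped. Hoxa5 was 0.177, 8.13 and 8.17 CPM in Synapsin-cre, 9.51, 14.9 and 4.81 CPM in Nestin-creERT2 and 46.8, 9.23 and 9.62 CPM in NG2-creERTM. A single library, NG2-creERTM replicate 1, carried the highest level, and the other 2 of its model lay within the range of Nestin-creERT2. Hoxa6, their neighbour, stayed between 0.389 and 2.63 CPM outside Synapsin-cre replicate 1, where it had 0 counts.

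Hoxa7, a thoracic gene of the trunk, varied more. It was 0.133, 27.5 and 6.52 CPM in Synapsin-cre, 38.9, 69.0 and 5.74 CPM in Nestin-creERT2 and 4.76, 31.8 and 9.65 CPM in NG2-creERTM. High and low libraries were found in each model. Per kilobase of exon, which allows genes to be compared, Hoxa7 led the Hox genes in Synapsin-cre replicate 2 (9.55 CPM per kb), Nestin-creERT2 replicates 1 and 2 (13.5 and 24.0) and NG2-creERTM replicate 2 (11.04). Hoxa4 led in replicate 3 of each model, at 10.6, 9.23 and 7.05 CPM per kb for Synapsin-cre, Nestin-creERT2 and NG2-creERTM. Hoxa5 led in NG2-creERTM replicate 1, at 24.9 CPM per kb. The leading gene therefore differed among libraries of the same model.

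**Figure D3:**
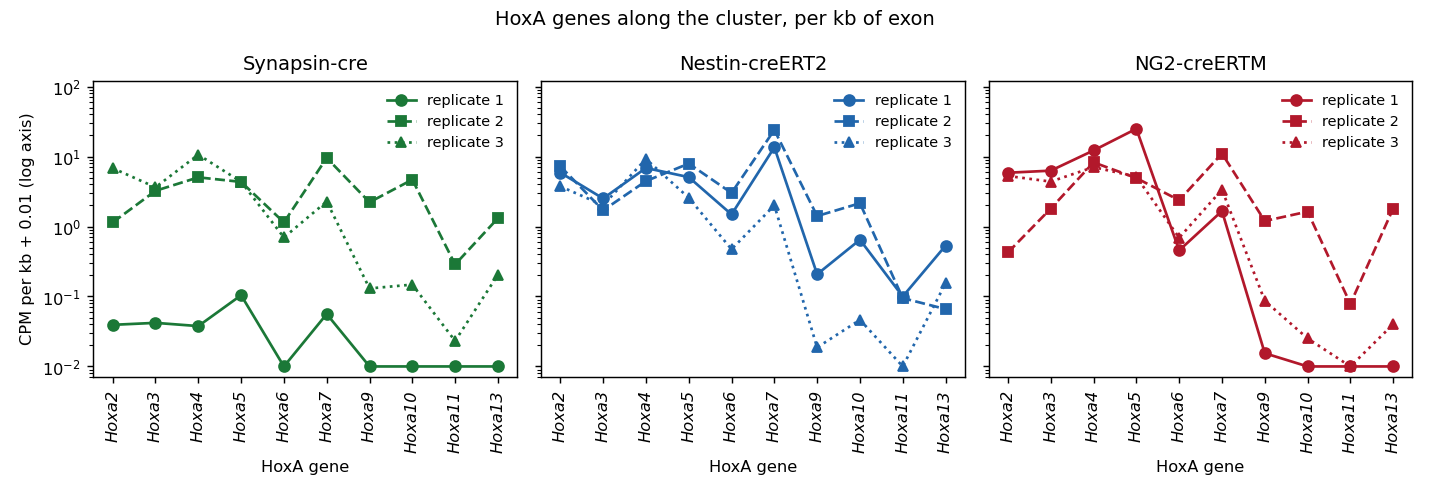
Lines follow 10 HoxA genes in cluster order in each library, as CPM per kb of exon plus 0.01 on a log axis, with 1 panel per model. Synapsin-cre replicate 1 lies near the bottom throughout, and beyond Hoxa7 the libraries of each model spread apart, with Hoxa10 between 0 and 4.67 CPM per kb.

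The posterior end of HoxA was on in some libraries of every model and near 0 in others. Hoxa9, a gene also known from blood progenitors and leukaemia, was 0, 12.2 and 0.661 CPM in Synapsin-cre, 1.09, 7.70 and 0.0476 CPM in Nestin-creERT2 and 0.0299, 6.53 and 0.422 CPM in NG2-creERTM. Hoxa10, which patterns the lumbar region and the uterus, was 0, 15.3 and 0.451 CPM in Synapsin-cre, 2.08, 7.004 and 0.119 CPM in Nestin-creERT2 and 0, 5.31 and 0.0496 CPM in NG2-creERTM. Both genes were at or above 1 CPM in the same 4 libraries: Synapsin-cre replicate 2, Nestin-creERT2 replicates 1 and 2, and NG2-creERTM replicate 2. Hoxa13, the last gene of the cluster, which patterns the limb ends and the hindgut, was 0, 3.23 and 0.481 CPM in Synapsin-cre, 1.29, 0.138 and 0.357 CPM in Nestin-creERT2 and 0, 4.44 and 0.0744 CPM in NG2-creERTM. It passed 1 CPM in 3 of those 4 libraries and not in Nestin-creERT2 replicate 2. Hoxa11, between them, did not pass 0.634 CPM anywhere.

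Taken as a share of HoxA CPM, Hoxa9 to Hoxa13 held 32.0% in Synapsin-cre replicate 2 and 2.40% in replicate 3. They held 5.12, 11.5 and 1.14% in Nestin-creERT2 replicates 1, 2 and 3, and 0.0241, 19.3 and 0.821% in NG2-creERTM. Per kb the shares were lower, at 24.97% in Synapsin-cre replicate 2, 6.98% in Nestin-creERT2 replicate 2 and 13.6% in NG2-creERTM replicate 2, with the order of the models' highest libraries unchanged. The ratio of Hoxa7 to Hoxa5 per kb was 2.20 and 0.521 in Synapsin-cre replicates 2 and 3. It was 2.67, 3.03 and 0.779 in Nestin-creERT2 and 0.0663, 2.25 and 0.654 in NG2-creERTM. These profiles split within each model: the highest HoxA paralog at or above 1 CPM was 13 and 7 in Synapsin-cre replicates 2 and 3, 13, 10 and 7 in Nestin-creERT2 replicates 1, 2 and 3, and 7, 13 and 7 in NG2-creERTM.

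HoxB was almost silent. Its 10 genes had 67 counts in all 9 libraries together, and Hoxb1, Hoxb6 and Hoxb13 had 0 counts in each. The highest single value was 10 counts, for Hoxb4 in NG2-creERTM replicate 2 (0.261 CPM). Hoxb4, which in the embryo shares its hindbrain and neck domains with Hoxa4, did not pass 0.265 CPM in any library.

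HoxC and HoxD genes reached 1 CPM in few libraries, and some were above the floor of 3 counts in others. Hoxc4 had 11 and 12 counts in Synapsin-cre replicates 2 and 3, and Hoxd8 had 32 in replicate 2. Hoxc4, a gene of the neck region, was 0.0442, 0.303 and 0.361 CPM in Synapsin-cre, 2.32, 0 and 0.238 CPM in Nestin-creERT2 and 0.0299, 7.32 and 0.0248 CPM in NG2-creERTM. Hoxc9, which marks thoracic motor neurons, was 0, 0.303 and 0 CPM in Synapsin-cre, 1.17, 0 and 0.0476 CPM in Nestin-creERT2 and 0.0299, 2.61 and 0.0248 CPM in NG2-creERTM. Only Nestin-creERT2 replicate 1 and NG2-creERTM replicate 2 passed 1 CPM for either gene. Hoxc8 joined them at 1.64 CPM in Nestin-creERT2 replicate 1, the library with the choroid plexus markers, where Hoxc10 was 0.998 CPM. The part of those markers in these values was not tested. Nestin-creERT2 replicate 2 had 0 HoxC counts, which allows up to 0.0831 CPM at the floor of 3 counts.

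Hoxd8, a trunk gene, was 0, 0.882 and 0.0300 CPM in Synapsin-cre, 0.939, 21.0 and 0.0714 CPM in Nestin-creERT2 and 0, 12.5 and 0.0496 CPM in NG2-creERTM. Hoxd9, its neighbour, was 0, 0.303 and 0 CPM in Synapsin-cre, 0.117, 9.14 and 0 CPM in Nestin-creERT2 and 0, 2.22 and 0 CPM in NG2-creERTM. Both were high in Nestin-creERT2 replicate 2 and NG2-creERTM replicate 2 and low in the other libraries. Hoxd10 to Hoxd13, the limb and genital genes, stayed at or below 0.0551 CPM in every library. NG2-creERTM replicate 2 was thus the only library with HoxA, HoxC and HoxD genes at or above 1 CPM, 13 genes in all. Nestin-creERT2 replicate 1 also had 13, in HoxA and HoxC, and Nestin-creERT2 replicate 2 had 11, in HoxA and HoxD.

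**Figure D4:**
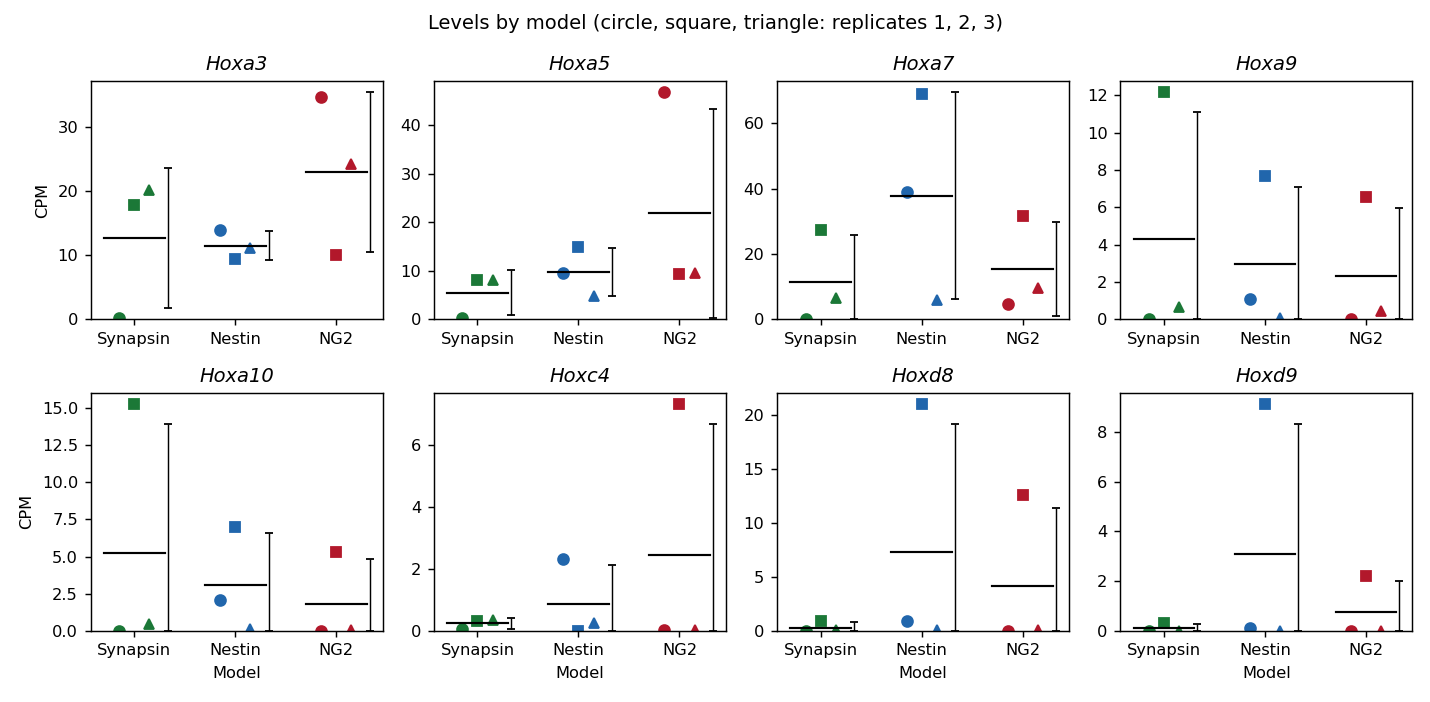
Points give the CPM of 8 Hox genes in each library by model, with circles, squares and triangles for replicates 1, 2 and 3, a bar at the mean and an error bar of 1 SD (n = 3, cut at 0). For Hoxa9, Hoxa10, Hoxd8 and Hoxd9 the highest point of a model lies far from its other 2, and the models overlap.

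The question whether the 3 models differ in Hox expression was put to edgeR's quasi-likelihood test of all 9 libraries, in which 14 of the 39 genes had enough counts: 10 of HoxA, Hoxc4, Hoxc9, Hoxd8 and Hoxd9. The other 25 genes fell below the filter on low counts. With no filter 36 Hox genes were tested and 0 passed. Of these, 2 had an unadjusted p under 0.05 for NG2-creERTM against Nestin-creERT2, 2 for Synapsin-cre against Nestin-creERT2, 0 for Synapsin-cre against NG2-creERTM and 2 for any difference, with a lowest edgeR adjusted p of 0.328. Among all 30806 genes of that unfiltered fit, 2745, 2647, 3116 and 3479 were under 0.05 unadjusted in the same order. After adjustment 12, 12, 0 and 23 of them passed. No Hox gene passed in any comparison: 0 of 14 between NG2-creERTM and Nestin-creERT2 (0% of the 17947 genes tested passed), 0 of 14 between Synapsin-cre and Nestin-creERT2 (0%), 0 of 14 between Synapsin-cre and NG2-creERTM (0%) and 0 of 14 for any difference among the models (0%). At an unadjusted p under 0.05 there were 0 Hox genes in each, against 11.3, 10.8, 12.8 and 13.1% of all genes in the same order. DESeq2 and limma voom also called 0 Hox genes, while DESeq2 called 624, 497, 451 and 868 genes in all. Without Synapsin-cre replicate 1, edgeR called 0.671, 1.48, 0.00541 and 1.87% of 18481 genes and again 0 Hox genes. With only the models compared in the fit, 1.39% of 17108 genes passed between NG2-creERTM and Nestin-creERT2, 0.0291% of 17175 between Synapsin-cre and Nestin-creERT2 and 0% of 17048 between Synapsin-cre and NG2-creERTM, and 0 Hox genes in each. The lowest adjusted p of a Hox gene in the edgeR fit without Synapsin-cre replicate 1 was 0.27, for Hoxa3 between NG2-creERTM and Nestin-creERT2, with a log2 change of 1.01. It was 0.292 with only those models in the fit and 0.779 with all 9 libraries.

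In the fit of all 9 libraries the lowest adjusted p of a Hox gene was that of Hoxa5. Its log2 fold change from NG2-creERTM to Synapsin-cre was -1.99 (SE 1.13), with an unadjusted p of 0.111 and an edgeR adjusted p of 0.478, and -1.44 with an adjusted p of 0.514 once Synapsin-cre replicate 1 was left out. All 3 Synapsin-cre libraries lay below all 3 NG2-creERTM libraries for Hoxa5, as they did or the reverse for 13.8% of all genes tested. It was the 1 Hox gene without overlap in that comparison, and 0 had none between NG2-creERTM and Nestin-creERT2 (25.1% of all genes) or between Synapsin-cre and Nestin-creERT2 (14.7%). The largest fitted differences were those of Hoxd9 and Hoxd8 from Nestin-creERT2 to Synapsin-cre, at -4.80 (SE 2.78, edgeR adjusted p = 0.57) and -4.54 (SE 2.70, adjusted p = 0.581). They rest on Nestin-creERT2 replicate 2: without it they were 0.88 and -0.69. Between NG2-creERTM and Nestin-creERT2 the changes ran from -2.05 for Hoxd9 to 1.53 for Hoxc4, with standard errors from 1.09 to 2.40 over the 13 genes reported. For Hoxd9 and Hoxc4 these changes were smaller than the SD of log2 CPM within a model, 2.98 and 2.73. This does not hold for every gene. Without Synapsin-cre replicate 1 the change of Hoxa3 was 1.01, above its SD of 0.61, and it was not called.

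**Figure D5:**
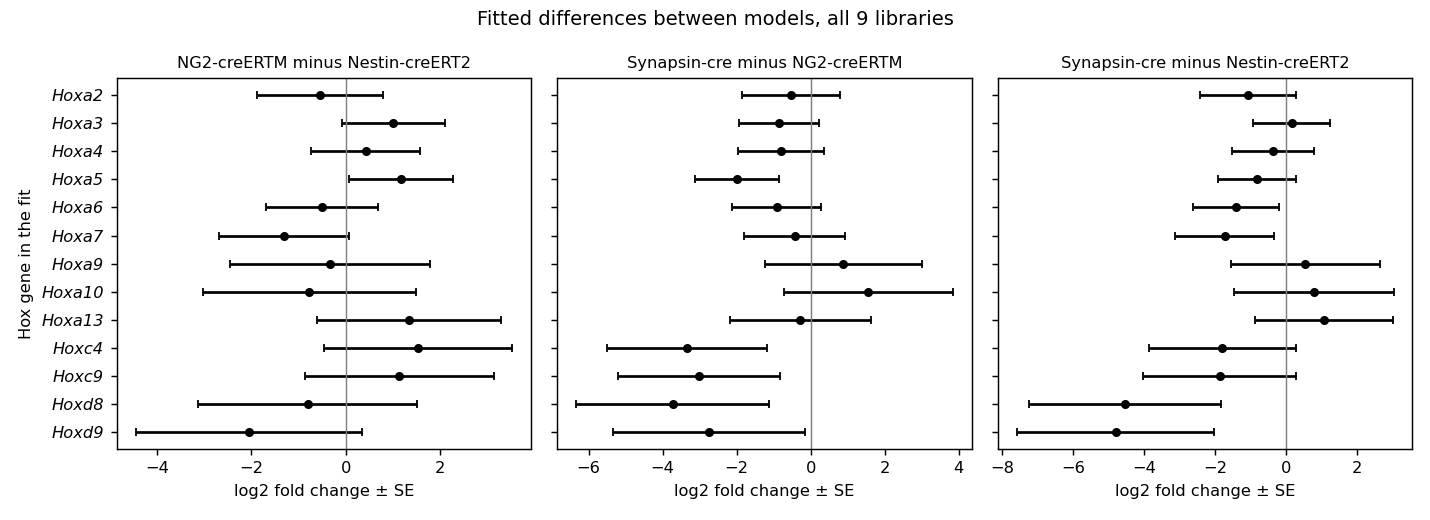
Points give the fitted log2 fold change of 13 Hox genes in the fit in each of the 3 comparisons, with bars of 1 standard error. For NG2-creERTM minus Nestin-creERT2 they run from -2.05 to 1.53, and the bars are widest for Hoxd8 and Hoxd9.

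The spread itself was large. The SD of log2 CPM within a model was 3.49 for Hoxd8, 3.49 for Hoxa10, 3.40 for Hoxa9 and 2.98 for Hoxd9, against a median of 0.63 over the 17947 genes. Without Synapsin-cre replicate 1 these were 3.73, 3.23, 3.08 and 3.23, with a median of 0.51 over all genes. Hoxa13, Hoxc4 and Hoxc9 also kept a wide spread, at 2.44, 2.91 and 2.496, and these 7 genes lay at percentiles 99.44 to 99.96 of all genes without that library. The other HoxA genes fell to lower values to different degrees. The SD of Hoxa2 went from 2.31 to 1.58 and that of Hoxa7 from 2.52 to 1.61, still at percentiles 95.4 and 95.69. For Hoxa5 and Hoxa6 it came to 0.99 and 1.12, at percentiles 82.8 and 86.9. The SD of Hoxa3 went from 2.19 to 0.61 and that of Hoxa4 from 2.34 to 0.54, at percentiles 61.1 and 53.7. Models accounted for 0.74% of the variance of Hoxa9 and 33.5% of that of Hoxa5, against a median of 28.8% over all genes.

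Noncoding genes inside the clusters were also found mainly in HoxA. Of 18 in the HoxA span, 9 had at least 10 counts over all libraries, against 1 of 9 in HoxB, 0 of 7 in HoxC and 2 of 9 in HoxD. The 6 with the highest mean were Hotairm1, Gm27477, Hoxaas2, Gm15050 and Hoxaas3 in HoxA and the processed pseudogene Gm11539 in HoxB. Hotairm1, an antisense RNA at the anterior end of HoxA, was 0.0442 CPM in Synapsin-cre replicate 1 and 1.02 to 4.34 CPM in the other 8. It was highest in NG2-creERTM replicate 1. Hoxaas3, antisense to the middle of the cluster, had 0 counts in Synapsin-cre replicate 1 and 0.581 to 2.69 CPM elsewhere. The 7 miRNA genes of the clusters had 0 counts, which is not read here as absence of any of them. Mir196b in addition shares exonic bases with Hoxa9 on the same strand, so reads there are ambiguous and not counted. Antisense genes were told from their Hox partners by strand, and 3.25 to 3.64% of the reads in genes fell on the other strand.

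The genes beside HoxA were expressed in every library. Skap2, an adaptor protein of immune and other cells, was 23.4 CPM in Synapsin-cre replicate 1 and 58.3 to 195 CPM in the others. Hibadh, a mitochondrial enzyme of valine breakdown, was 30.3 to 111 CPM in all 9, and Snx10, a sorting nexin, 32.1 to 85.0 CPM. In Synapsin-cre replicate 1 Hibadh was 77.0 CPM and Snx10 59.0 CPM, within the range of the other 8. Evx1, the homeobox gene at the posterior end of HoxA, had 3 counts in all, and Evx2, its partner beside HoxD, had 0.

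The cofactors and regulators of Hox genes were mostly expressed whether Hox genes were or not. All 9 of the TALE cofactors (Pbx, Meis and Pknox genes) were in the fit and 0 passed. Meis3, a cofactor of the hindbrain, was 56.4, 38.2 and 49.9 CPM in Synapsin-cre, 41.8, 52.2 and 49.5 CPM in Nestin-creERT2 and 18.2, 21.7 and 17.9 CPM in NG2-creERTM. The 3 NG2-creERTM libraries lay below the other 6, with a log2 change from Nestin-creERT2 of -1.31 (edgeR adjusted p = 0.244). Between NG2-creERTM and Nestin-creERT2, 25.1% of all genes tested had no overlap. Meis2 was highest in Synapsin-cre replicate 1, the library with almost no Hox counts, at 669 CPM against 21.9 to 90.3 CPM in the others. Of the retinoic acid list 11 of 13 genes were in the fit and 0 passed. Rarg, a retinoic acid receptor, was 5.92 to 19.7 CPM in Nestin-creERT2, 20.5 to 95.5 in Synapsin-cre and 48.8 to 133 in NG2-creERTM, with an edgeR adjusted p of 0.324 for any difference. Cdx1, Cdx2 and Cdx4 had 7, 6 and 5 counts over all libraries.

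Polycomb subunits, which hold Hox clusters silent, were present throughout, as were Trithorax proteins and other activating cofactors, which keep them on. Of these lists 21 of 21 and 15 of 15 genes were in the fit, and 0 passed in either. Their levels were not even. In Synapsin-cre replicate 1 Ezh2 was 17.2 CPM against 65.4 to 180 CPM in the others, and Eed 18.2 against 29.0 to 57.2. Ezh1 and Cbx7 went the other way, at 89.1 and 129 CPM there against 22.0 to 51.4 and 11.7 to 28.7. The part of these subunits in the Hox values was not tested. Bmi1, a Polycomb ring protein, was 56.5 to 122 CPM in Synapsin-cre, 133 to 219 in Nestin-creERT2 and 104 to 128 in NG2-creERTM. Kdm6b, which removes the Polycomb mark from histone H3, was 180, 313 and 250.04 CPM in Synapsin-cre, 81.1, 77.9 and 58.0 CPM in Nestin-creERT2 and 137, 81.9 and 113 CPM in NG2-creERTM. The Synapsin-cre libraries lay above the other 6, with an edgeR adjusted p of 0.222 for any difference. Kmt2b and Kmt2d of the same list did so too, at 185 to 201 and 239 to 386 CPM against at most 117 and 153. Of all genes tested, 14.7% had no overlap between Synapsin-cre and Nestin-creERT2, and 13.8% between Synapsin-cre and NG2-creERTM. The range of Kdm6b in Synapsin-cre included the library with almost no Hox counts.

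Factors of other brain regions were found beside the Hox genes. The 12 forebrain factors summed to 565 CPM in Synapsin-cre replicate 1, the library with almost no Hox counts and the most neuron markers, against 30.6 to 105 CPM in the other 8. Dlx1, Dlx2 and Dlx5, which act in forebrain interneurons, made up much of it, at 345, 81.9 and 51.5 CPM. Elsewhere they were 0.150 to 25.4, 0.0599 to 5.72 and 0.332 to 2.81 CPM. Six3 and Emx2 of the same list were not highest in that library. They were 0.133 and 3.32 CPM there, against 0.0992 to 19.3 and 0.0827 to 11.2 CPM elsewhere. Lhx2, which acts in the forming forebrain, was 8.43 to 45.5 CPM in all 9 libraries. The 9 midbrain and isthmus factors went the other way, with a sum of 5.22 CPM in Synapsin-cre replicate 1 and 27.6 to 87.0 CPM in the others. En1 and En2, of the midbrain and its border with the hindbrain, were 0.265 and 0.575 CPM in that library and 9.01 to 22.1 and 15.6 to 42.2 CPM in the 8 with HoxA. Other genes of that list did not follow them: Otx2 was 2.30 CPM and Pax5 1.55 CPM in Synapsin-cre replicate 1, each above 7 of the other 8 libraries. The 10 hindbrain and spinal cord factors summed to 35.9 CPM there and to 35.3 to 129 CPM in the others, so that the ranges met. Lbx1, of dorsal hindbrain and spinal cord neurons, was 0.442, 7.88 and 3.25 CPM in Synapsin-cre, 15.8, 8.89 and 0.143 CPM in Nestin-creERT2 and 0.210, 11.7 and 0.0496 CPM in NG2-creERTM. Its highest library in NG2-creERTM was replicate 2, where Hoxa9 was highest too. Egr2 and Tlx3 of the same list were highest in replicate 3 of that model, at 50.1 and 6.92 CPM, and Lmx1b in replicate 1, at 13.7 CPM, where Hoxa9 was below 1 CPM. Of the 12 forebrain, 9 midbrain and 10 hindbrain factors listed, 11, 6 and 5 were in the fit and 0 passed.

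Markers of other cells that can express Hox genes were summed in each library. The 9 fibroblast markers summed to 159 to 295 CPM in Synapsin-cre, 61.8 to 81.1 in Nestin-creERT2 and 479 to 1319 in NG2-creERTM, with the highest value in NG2-creERTM replicate 1, where Hoxa5 was highest. Most of that value came from Col1a1, Prrx1 and Col1a2, at 480, 422 and 266 CPM. The list did not move as a whole: Dcn was lowest in that library, at 0.868 CPM, and Mgp, Col3a1, Twist1 and Twist2 were highest elsewhere. The other NG2-creERTM libraries, also above those of the other models in fibroblast markers, had Hoxa5 at 9.23 and 9.62 CPM. The 10 Schwann and neural crest markers summed to 330 to 1655, 34.9 to 449 and 1169 to 2489 CPM in the same order, with Pmp2 at or under the floor in all libraries. A large part of these sums was Sox10, which is also a marker of oligodendrocyte precursors. Sox10 was 144 to 1089, 25.7 to 380 and 930 to 974 CPM in that order. The 5 erythroid markers summed to 2.10 to 34.5, 0.547 to 44.7 and 15.1 to 49.2 CPM, with the highest values in Nestin-creERT2 replicate 2 and NG2-creERTM replicate 2, where Hoxd8 was high. Replicate 3 of Synapsin-cre and of NG2-creERTM also held them, at 34.5 and 18.7 CPM, with Hoxd8 at 0.0300 and 0.0496 CPM. The 6 myeloid markers summed to 61.1 to 489, 235 to 319 and 211 to 295 CPM. T cell markers (5 genes) summed to at most 4.07 CPM and skeletal muscle markers (6 genes) to at most 4.35 CPM in any library. The part of fibroblasts, Schwann cells and blood cells in the Hox values was not tested.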

How the data were processed

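RNA came from a Qiagen RNeasy kit and libraries were made as Illumina instructs, per the labels' protocols. The authors deposited counts of reads per gene, made with STAR and HTSeq on mm10, per the submitters' processing notes; which tool made which column, the versions and the annotation release are not given in the sources used here. Counts of the strand with most reads were used (the other strand held 3.25 to 3.64%), without the 4 summary lines per file. The reads of those 4 lines, which were not assigned to a gene, made up 17.9 to 27.3%. This share includes the ambiguous reads, at 1.02 to 1.17%. Of 46517 identifiers, 46005, and all 39 Hox genes, matched GENCODE vM21 on GRCm38.

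CPM were computed here with TMM factors (0.960 to 1.08). CPM per kb used exonic bases not shared with a same-strand gene. The test was edgeR 4.0.16 (R 4.3.3), glmQLFit and glmQLFTest after filterByExpr on the 9 libraries, 2-sided, Benjamini-Hochberg over 17947 genes, threshold 0.05. It was tested on simulated data. Values in every library are given for Hox genes that reached 10 CPM in a library and for the highest paralog at or above 1 CPM of a cluster. For up to 4 genes of the other lists by smallest p, values or ranges are given. The 6 noncoding genes with the highest mean are named, with ranges for Hotairm1 and Hoxaas3 only. Hoxc4, other genes of the lists and the printed promoters were chosen after their values were seen. Members and lists were chosen with earlier results of these data known. Some genes that met the rule are not reported here.

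Alternatives were RLE and upper quartile factors, no filter, a minimum of 1 CPM in 3 libraries, limma 3.58.1 voom, DESeq2 1.42.0, unstranded counts, 2 models only, and each library left out. Levels per kb and 2 models without Synapsin-cre replicate 1 were added after seeing the data. Python 3.11.15 was used.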

Additional observations from a re-analysis of the deposited data

How the results depend on the processing

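No Hox gene was called under any alternative, and the fold changes of Hox genes held their direction in 623 of 668 values under alternatives, over the 13 genes reported. With 1 library left out, 27 of 39 fold changes changed sign at least once. Their log2 ranges were, for NG2-creERTM minus Nestin-creERT2 Hoxa5 from -0.057 to 1.61, Hoxa6 from -1.54 to 0.26, Hoxa9 from -3.67 to 2.04, Hoxa10 from -6.69 to 0.70, Hoxa13 from -3.81 to 2.57, Hoxc4 from -4.79 to 4.30, Hoxc9 from -3.73 to 4.97, Hoxd8 from -7.95 to 3.05 and Hoxd9 from -9.75 to 3.64. They were, for Synapsin-cre minus NG2-creERTM Hoxa2 from -2.71 to 0.025, Hoxa6 from -1.72 to 0.12, Hoxa7 from -2.21 to 0.66, Hoxa9 from -2.77 to 4.20, Hoxa10 from -2.92 to 7.46, Hoxa13 from -2.59 to 4.87, Hoxc4 from -3.92 to 2.98, Hoxc9 from -7.97 to 1.84, Hoxd8 from -7.68 to 3.40 and Hoxd9 from -7.70 to 4.94. They were, for Synapsin-cre minus Nestin-creERT2 Hoxa3 from -0.36 to 0.72, Hoxa4 from -1.44 to 0.19, Hoxa9 from -3.12 to 2.91, Hoxa10 from -3.72 to 2.25, Hoxa13 from -1.28 to 2.29, Hoxc4 from -2.39 to 0.95, Hoxc9 from -6.86 to 1.94 and Hoxd9 from -9.77 to 0.88. With limma voom the log2 change turned in Hoxa13 (-1.17 for NG2-creERTM minus Nestin-creERT2, 1.01 for Synapsin-cre minus NG2-creERTM, -0.16 for Synapsin-cre minus Nestin-creERT2) and, for Synapsin-cre minus Nestin-creERT2, in Hoxa10 (-0.93), Hoxa3 (-1.25), Hoxa9 (-0.21) and Hoxc4 (0.070). With 2 models and no Synapsin-cre replicate 1, a fit chosen after seeing the data, it turned in Hoxa4 (0.19) against Nestin-creERT2 and in Hoxa13 (0.29), Hoxa2 (0.012) and Hoxa7 (0.12) against NG2-creERTM. The cause was not tested. Counts of all genes called by edgeR were 0 in each comparison, and depended on the fit. For NG2-creERTM minus Nestin-creERT2 they were 12 with no filter, 624 with DESeq2 and 237 with only those models, and 0 to 124 with 1 library left out. For Synapsin-cre minus Nestin-creERT2 they were 12 with no filter, 497 with DESeq2, 1 with unstranded counts, 5 with only those models and 431 without Synapsin-cre replicate 1 as well, and 0 to 273 with 1 library left out. For Synapsin-cre minus NG2-creERTM they were 451 with DESeq2 and 1 with only those models and no Synapsin-cre replicate 1, and 0 to 1 with 1 library left out. For any difference they were 23 with no filter and 868 with DESeq2, and 0 to 346 with 1 library left out. The highest of each range came without Synapsin-cre replicate 1. With 0.5 or 5 CPM in place of 1 CPM as the threshold, 0 to 15 and 0 to 9 Hox genes per library reached it. The summed levels of the clusters moved by less than 1 SD in all 105 values under alternatives. No paired analysis was possible because the labels give no replicate numbers shared between models; those used here follow the order of the samples. Depth limits the precision for the 24 Hox genes below 1 CPM, which were all left out of the fit of 9 libraries by the filter on low counts.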
